A study of Homo sapiens with 42 samples.

Results

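In wild-type HAP1 cells, RNA after a pair of kinase inhibitors given together was compared with RNA after a single inhibitor, THZ1. The 6 libraries compared, 3 of the combination with YKL at 2 µM and 3 of THZ1, were taken by their labels from a series of 42 libraries. HAP1 is a near-haploid human line derived from a chronic myeloid leukaemia. The cells called WT carry unedited CDK7, and a second HAP1 line carries the C312S substitution in CDK7. The combination holds THZ531, which binds CDK12 and CDK13 covalently, and the compound labelled YKL, read here as the CDK7 inhibitor that the series title names. The label of the combination gives only the dose of 2 µM, and the compounds come from the names of the table's columns. THZ1 is a covalent inhibitor of CDK7 that also acts on CDK12 and CDK13. The other groups used are the combination with YKL at 500 nM, YKL alone at 2 µM or 500 nM, THZ531 alone and the solvent DMSO in WT cells, and the combination at 2 µM, THZ1 and DMSO in C312S cells, each with 3 libraries. All were treated for 24 h. The labels state no dose for THZ1 or THZ531, so the compounds are compared as they were given and not at matched doses. Whether the libraries of a group stem from separate cultures is not in the labels, so p-values measure how libraries vary, and that variation may be technical.

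CDK7 works with cyclin H and MNAT1 as the CDK-activating kinase. Within the general transcription factor TFIIH it phosphorylates the tail of RNA polymerase II at promoters, and outside it activates the kinases of the cell cycle. CDK12 and CDK13 pair with cyclin K and phosphorylate the same tail during elongation. Loss of CDK12 activity is known to lower long DNA repair genes. Because THZ1 reaches all 3 kinases, the comparison asks how far a pair of more selective inhibitors leaves the same transcripts as THZ1 does.

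Values are the deposited FPKM, fragments scaled by transcript length and library total, and hold no read depth. Differences are on the scale log2(FPKM + 1), combination minus THZ1, and a gene counts as called where limma's test over all 42 libraries gave a Benjamini-Hochberg adjusted p under 0.05. The table also holds ERCC spike-ins, synthetic RNAs added during preparation. Set over the level of the genes, the spike-in level was 0.49 ± 0.084 log2 in the combination libraries, 1.82 ± 0.015 in the THZ1 libraries and -0.62 ± 0.077 in the DMSO libraries (SD, n = 3). It was thus 2.51-fold higher with THZ1 than with the combination (difference -1.33, exact two-sided permutation p = 0.1, the smallest that 3 against 3 allows). The sources used here do not say whether the spike-ins were added per cell or per mass of RNA. This level alone therefore does not show that the THZ1 samples held less RNA. Fewer cells and less RNA per cell also cannot be told apart in these bulk samples. Scaling the libraries by the spike-ins would raise the median gene by 0.918 log2 in the combination. The scaling comes before 1 FPKM is added, so it moves genes of high FPKM by more than genes of low FPKM. A list's median relative to all genes under this scaling therefore shifts with the FPKM of its members. Without the added 1 FPKM, that relative median would be the same before and after the scaling. FPKM carry no such scaling, so every difference and every placement against DMSO below is relative to the other genes. Placements of single genes and lists against DMSO are given on the deposited scale only. Of the called genes 51.9% were higher in the combination on the deposited scale, 61.3% after scaling to equal total FPKM and 99.5% after scaling by the spike-ins.

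The difference between the treatments also moved with base composition. With genes split into 5 equal bins by the GC content of their longest transcript, 62.9% of the lowest bin were called higher and 12.7% lower, and 12.9% of the highest bin were called higher and 59.2% lower. Across 12143 genes, which are not independent, Spearman's rho between the difference and GC was -0.429, and its part in single results was tested only by removing the GC and length trends. Values without those trends are given where they change a call, turn a sign or move a difference or a list's count or median by over 1.5 times. Scaling to equal total FPKM raised the median gene by 0.0978 log2 and the median of each of the 24 lists used below as well. As for the cells themselves, the blood cell genes MPO, SPI1, GATA1 and CD3E were at 0 in all 9 WT combination, THZ1 and DMSO libraries, and 2 of 16 such genes, KIT and TAL1, passed 1 FPKM in those groups. Their summed level was 4.30 to 5.20 FPKM in the combination and 4.96 to 5.41 FPKM with THZ1. The fibroblast markers DCN and LUM were at 0 as well, and the sum of the 8 fibroblast genes, 225 to 255.4 FPKM in the combination and 511.7 to 525.2 FPKM with THZ1, was nearly all VIM, an intermediate filament gene also expressed in many cultured lines. The 6 epithelial genes summed to 33.3 to 39.7 FPKM in the combination and 37.1 to 40.3 FPKM with THZ1.

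**Figure D1:**
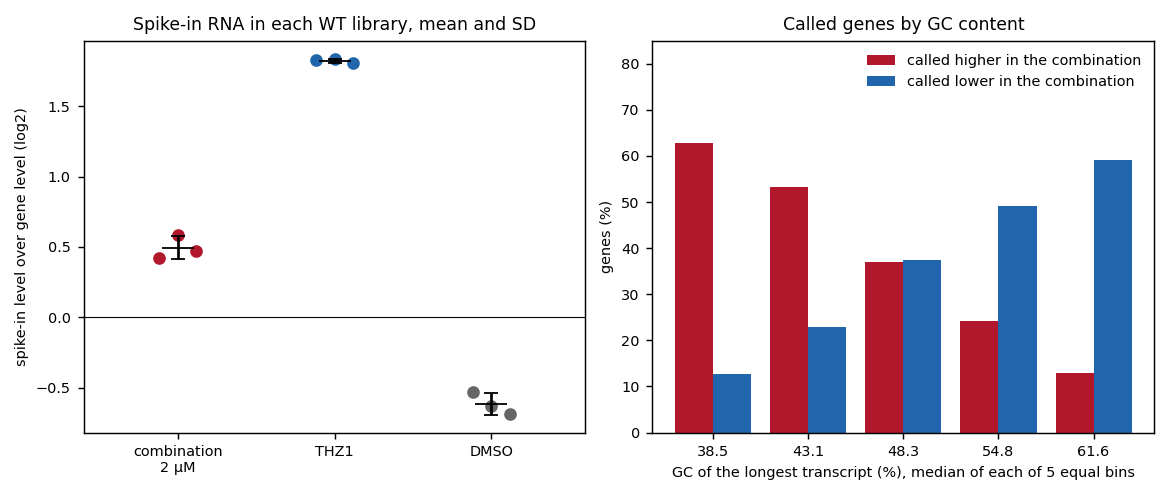
Left, spike-in level over gene level (log2) in each of 9 WT libraries, with mean and SD of 3. THZ1 libraries lie highest at 1.82 on average, above the combination at 0.49 and DMSO at -0.62. Right, the share of genes called higher or lower in the combination than with THZ1 (%), in 5 bins of genes by GC content, with 62.9% higher in the lowest bin and 12.9% in the highest.

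The 2 treatments left different transcriptomes, mostly through modest shifts. Of 12816 genes tested 9478 were called (74%), 4916 higher in the combination (38.4%) and 4562 lower (35.6%). A change of at least 2-fold was reached by 696 genes (5.43%), of which 286 were higher (2.23%) and 410 lower (3.2%). The median absolute difference was 0.36 log2 and the median difference 0.024. The 3 libraries of each group lay apart for 8854 of the called genes (69.1% of those tested). Early response genes, splicing factors and the regulators of elongation were mostly lower in the combination, and mitochondrial ribosomal protein genes were mostly higher.

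**Figure D2:**
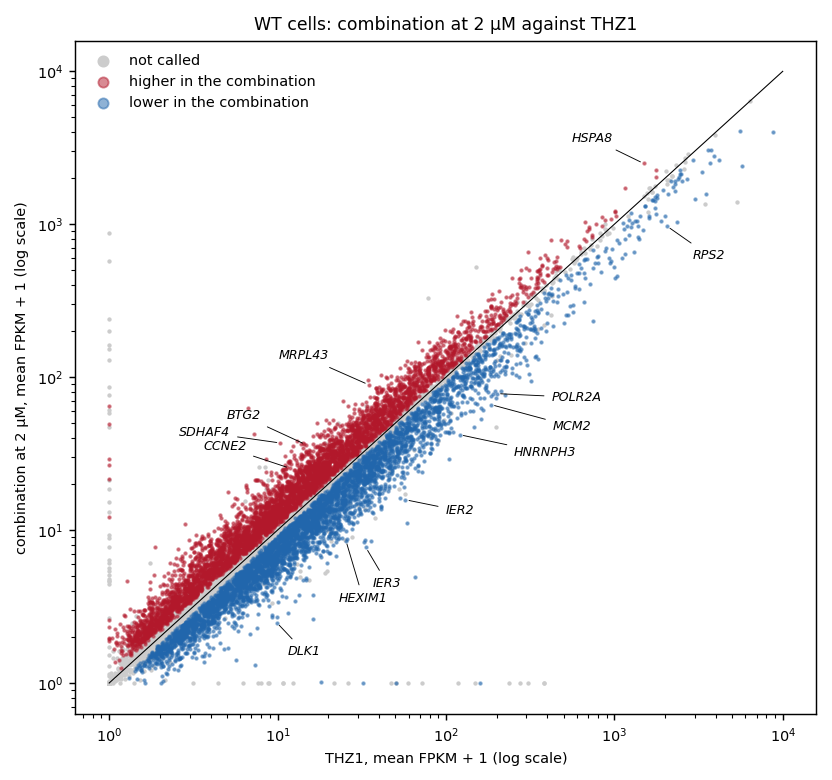
Mean FPKM + 1 of each tested gene with the combination at 2 µM (vertical, log scale) against THZ1 (horizontal, log scale), coloured by the limma call. Points on the lines at 1 have a mean of 0 in one of the groups. IER2, IER3, HEXIM1 and DLK1 lie below the diagonal, and MRPL43, SDHAF4, BTG2 and CCNE2 above it.

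Immediate early genes are transcribed within minutes of a growth or stress signal from promoters that hold paused polymerase, and encode short-lived regulators. Of 41 tested members 32 were lower in the combination than with THZ1 and 2 were higher (background 35.6% lower and 38.4% higher), with a median of -0.51 (-0.54 relative to all genes after scaling by the spike-ins). IER2, a nuclear regulator of the early response, was at 17.9, 12.9 and 13.6 FPKM in the combination libraries, 59.99, 56.8 and 52.8 FPKM in the THZ1 libraries and 14.7, 14.3 and 14.6 FPKM in the DMSO libraries. The combination libraries lay at the DMSO level and the THZ1 libraries far above both. The IER2 level with THZ1 was 3.82 times that with the combination (log2 difference -1.88, 95% interval -2.07 to -1.68, adjusted p = 2.78e-17). IER3, an early gene linked to survival signalling, was at 7.42, 5.32 and 7.401 FPKM in the combination libraries, 29.6, 33.4 and 34.2 FPKM in the THZ1 libraries and 4.68, 3.87 and 4.598 FPKM in the DMSO libraries. THZ1 again stood far above the other groups, with a level 4.83 times that of the combination (log2 difference -2.12, 95% interval -2.34 to -1.91, adjusted p = 1.07e-17). MYC, the growth-promoting transcription factor, was at 79.4, 64.6 and 71.8 FPKM in the combination libraries, 194, 198 and 197 FPKM in the THZ1 libraries and 133, 138 and 131 FPKM in the DMSO libraries. Here the combination was the lowest group and THZ1 the highest, and no libraries overlapped (log2 difference -1.44, 95% interval -1.55 to -1.33, adjusted p = 1.28e-20).

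The promoters of 2 of these genes, each the 250 bases before the gene's start, are printed because members of the class moved together. Both are from RefSeq on GRCh38.p14, plus strand, IER2 at chr19:13150161-13150410 and JUNB at chr19:12791236-12791485. JUNB, an AP-1 transcription factor, was picked after its values were seen. Capitals mark TGACG, the core of the cAMP response element, on either strand, and TATAAA, the TATA box, on the strand of the gene.
IER2: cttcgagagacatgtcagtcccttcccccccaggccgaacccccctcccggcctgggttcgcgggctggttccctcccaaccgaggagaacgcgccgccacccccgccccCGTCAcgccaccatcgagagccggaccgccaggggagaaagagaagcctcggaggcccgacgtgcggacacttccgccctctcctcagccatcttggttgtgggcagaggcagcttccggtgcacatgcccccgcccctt
JUNB: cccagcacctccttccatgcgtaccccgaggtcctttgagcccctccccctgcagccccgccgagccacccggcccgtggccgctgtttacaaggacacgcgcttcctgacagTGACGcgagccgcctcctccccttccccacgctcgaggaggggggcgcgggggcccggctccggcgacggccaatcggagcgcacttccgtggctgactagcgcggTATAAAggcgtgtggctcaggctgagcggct
JUNB was at 16.1, 11.9 and 12.3 FPKM in the combination libraries, 33.8, 30.7 and 28.9 FPKM in the THZ1 libraries and 8.23, 9.95 and 10.3 FPKM in the DMSO libraries, so THZ1 again stood above both other groups (log2 difference -1.16, 95% interval -1.39 to -0.94, adjusted p = 5.93e-11). IER2 shows 1 such core, read on the minus strand as CGTCA, and JUNB shows 1 core and 1 TATA box. Of the 31 list members with a promoter in the RefSeq table, 15 (48.4%) hold TGACG on either strand, against 21.7% of all 27305 promoters, and 7 (22.6%) hold TATAAA, against 7.17%. The CArG box bound by SRF, searched on both strands and able to overlap a TATAAA, was in 2 (6.45%), EGR1 and SRF, against 1.14%. The 27305 promoters also include those of genes not tested here, whereas all 31 list members were tested, so the sets are unlike. A match is a description of these letters and not a sign of binding.

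CYR61 and ATF3 were the 2 members called higher in the combination. CYR61, a secreted matricellular protein and a target of YAP, was at 107, 104 and 97.9 FPKM in the combination libraries, 73.5, 71.4 and 68.5 FPKM in the THZ1 libraries and 35.2, 34.2 and 31.8 FPKM in the DMSO libraries, highest in the combination (log2 difference 0.53, 95% interval 0.43 to 0.62, adjusted p = 9.48e-12). ATF3, a stress-induced transcription factor, averaged 34.8 ± 2.797 FPKM in the combination libraries and 26.3 ± 0.257 FPKM in the THZ1 libraries (log2 difference 0.39, 95% interval 0.25 to 0.52, adjusted p = 3.58e-06), and lost its call when GC and length trends were removed (0.12, adjusted p = 0.0562). Against DMSO, 22 members were higher and 12 lower with the combination (background 38.9% and 38.1%), and 35 were higher and 1 lower with THZ1 (34% and 34.8%). These 2 comparisons share the DMSO libraries. Of 19 targets of YAP and TEAD, the transcription factors of the Hippo pathway, 4 were higher and 12 lower in the combination (background 38.4% and 35.6%). The median was -0.35, or -0.374 relative to all genes (-0.18 with spike-in scaling, a shift made by the added 1 FPKM). Without GC and length trends 3 were higher and 9 lower, with a median of -0.11. The count of higher members was 2 without combination replicate 2 or 3 and without THZ1 replicate 1 or 3, and 1 with a pseudocount of 0.1, with no filter on low values or with a filter of 1 FPKM in all libraries. CTGF, like CYR61 a secreted target, was at 40.96, 38.9 and 37.1 FPKM in the combination libraries, against 69.5, 74.02 and 72.5 FPKM in the THZ1 libraries (log2 difference -0.87, 95% interval -0.99 to -0.75, adjusted p = 1.19e-14). PTPN14, a phosphatase that restrains YAP, was at 3.37 ± 0.189 FPKM in the combination libraries and 6.69 ± 0.31000 FPKM in the THZ1 libraries (-0.82 log2, -0.54 without GC and length trends). ANKRD1, another target, averaged 16.3 ± 1.0004 FPKM in the combination libraries and 13.1 ± 0.415 FPKM in the THZ1 libraries (0.297 log2, adjusted p = 0.0379). Its call was lost without any 1 of 5 of the 6 libraries, and its sign turned without GC and length trends (-0.11), so no direction is given for it.

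**Figure D3:**
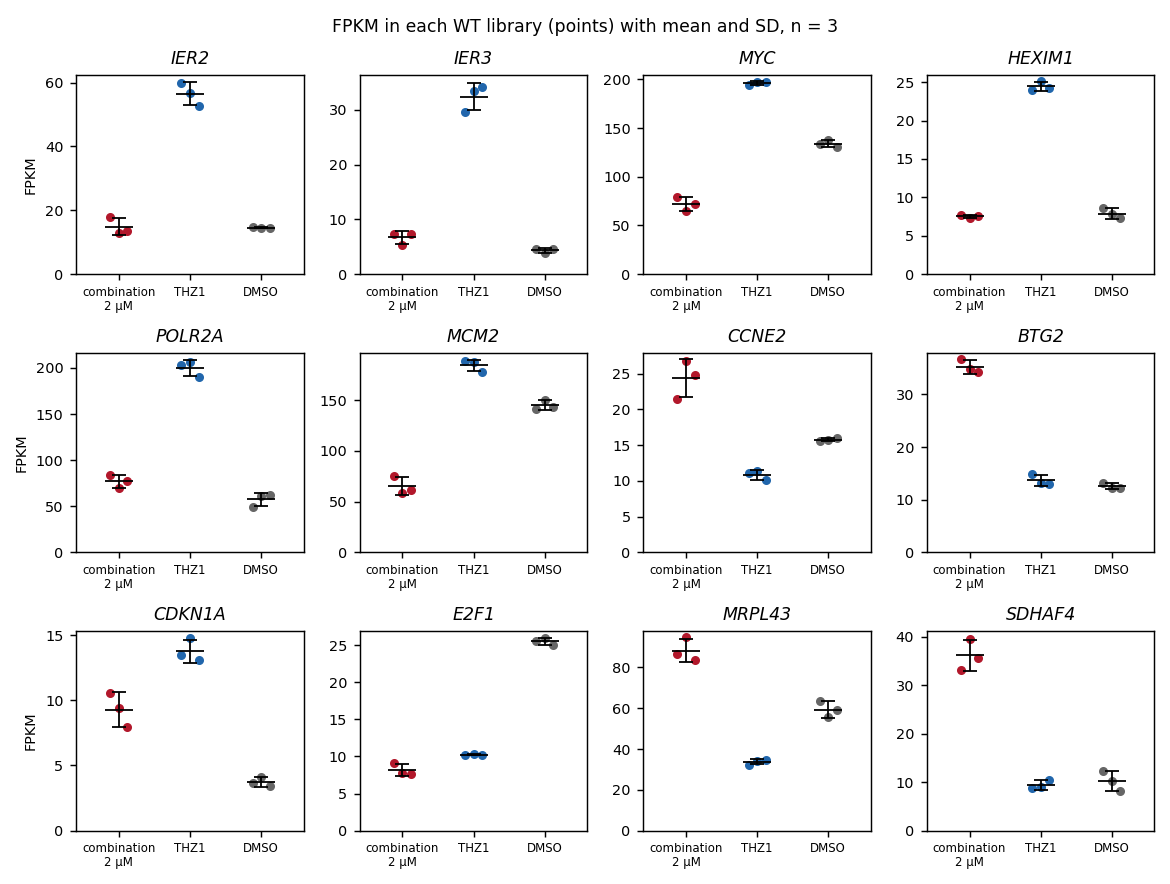
FPKM of 12 genes in each WT library (points), with mean and SD of 3, for the combination at 2 µM, THZ1 and DMSO. IER2, IER3 and HEXIM1 stand high with THZ1 alone, MRPL43 stands highest in the combination, and SDHAF4 and BTG2 stand high in the combination alone.

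Genes of the transcription machinery split by complex. HEXIM1, the inhibitor of the elongation kinase P-TEFb, was at 7.72, 7.34 and 7.57 FPKM in the combination libraries, 24.01, 25.1 and 24.3 FPKM in the THZ1 libraries and 8.59, 7.83 and 7.28 FPKM in the DMSO libraries. The combination matched DMSO closely, and THZ1 was 3.24 times the combination (log2 difference -1.58, 95% interval -1.67 to -1.48, adjusted p = 5.46e-23). The direction went the other way for 2 small elongation factors. NELFE, a subunit of the pausing complex NELF, was at 73.1, 73.9 and 72.2 FPKM in the combination libraries, 32.9, 39.1 and 37.1 FPKM in the THZ1 libraries and 52.9, 47.6 and 47.3 FPKM in the DMSO libraries, highest in the combination (log2 difference 0.99, 95% interval 0.87 to 1.11, adjusted p = 1.22e-15). SUPT4H1, a subunit of the pausing and elongation factor DSIF, was higher in the combination as well, at 82.5 ± 4.41 FPKM in the combination libraries and 52.2 ± 2.097 FPKM in the THZ1 libraries (0.65 log2). Of 37 transcriptional kinase and elongation genes 11 were higher and 23 lower (background 38.4% and 35.6%). The median was -0.33, or -0.359 relative to all genes (-0.13 with spike-in scaling, a shift made by the added 1 FPKM).

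RNA polymerase II subunits differed among themselves. POLR2A, the catalytic subunit whose tail these kinases modify, was at 83.5, 69.7 and 77.9 FPKM in the combination libraries, 203, 207 and 191 FPKM in the THZ1 libraries and 49.3, 60.8 and 62.2 FPKM in the DMSO libraries. THZ1 was far above the other groups, and THZ1 levels were 2.597 times those of the combination (log2 difference -1.37, 95% interval -1.52 to -1.21, adjusted p = 2.75e-16, -0.900 without GC and length trends). POLR2E, a subunit shared by the 3 polymerases, was at 44.8, 35.99 and 39.5 FPKM in the combination libraries, 89.5, 86.6 and 79.1 FPKM in the THZ1 libraries and 90.1, 91.6 and 84.1 FPKM in the DMSO libraries. For this subunit THZ1 and DMSO lay together and the combination lay low (log2 difference -1.07, 95% interval -1.19 to -0.95, adjusted p = 3.63e-16). POLR2H and POLR2D, small subunits, were higher in the combination by 0.68 and 0.45 log2. Altogether 8 of 12 subunits were higher and 3 lower (background 38.4% and 35.6%), against 5 and 4 without GC and length trends, where the median turned to -0.031.

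Of the 10 TFIIH and CDK-activating kinase genes 7 were higher in the combination and 1, ERCC2, was lower (background 38.4% and 35.6%), with a median of 0.44. The counts were 4 and 0 and the median 0.086 without GC and length trends. CCNH, the cyclin partner of CDK7, was at 91.97, 109 and 94.6 FPKM in the combination libraries, 51.98, 52.4 and 55.3 FPKM in the THZ1 libraries and 44.7, 37.4 and 38.2 FPKM in the DMSO libraries. Every combination library exceeded every other library (log2 difference 0.87, 95% interval 0.74 to 1.01, adjusted p = 3.73e-13, 0.28 without the trends). GTF2H1, the p62 core subunit, averaged 43.99 ± 3.997 FPKM in the combination libraries and 27.5 ± 0.395 FPKM in the THZ1 libraries (0.66 log2, 0.27 without the trends). ERCC2, the XPD helicase, averaged 9.29 ± 1.48 FPKM in the combination libraries and 13.5 ± 0.983 FPKM in the THZ1 libraries (-0.500 log2), a call lost without the trends (-0.087, adjusted p = 0.219). Among Mediator genes, the bridge between activators and polymerase, 16 of 30 were higher and 14 lower (median 0.198, background 38.4% and 35.6%), against 10 and 12 without the trends (median 0.023). MED7, of the middle module, averaged 15.1 ± 0.364 FPKM in the combination libraries and 6.48 ± 0.5204 FPKM in the THZ1 libraries (1.11 log2), and MED8, of the head, 33.3 ± 2.62 FPKM in the combination libraries and 17.3 ± 1.91 FPKM in the THZ1 libraries (0.91 log2). The tail subunit MED24 averaged 17.4 ± 1.18 FPKM in the combination libraries and 41.7 ± 2.42 FPKM in the THZ1 libraries (-1.22 log2), and MED26, which links Mediator to elongation factors, averaged 3.97 ± 0.192 FPKM in the combination libraries and 8.62 ± 0.328 FPKM in the THZ1 libraries (-0.95 log2). Without GC and length trends MED7 was at 0.66 and MED26 at -0.61.

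The targeted kinases themselves differed in transcript level. CDK7 was at 48.5, 53.4 and 51.7 FPKM in the combination libraries, 35.1, 31.8 and 35.8 FPKM in the THZ1 libraries and 40.4, 37.5 and 36.6 FPKM in the DMSO libraries, highest in the combination (log2 difference 0.57, 95% interval 0.45 to 0.68, adjusted p = 1.03e-10). This call ended without GC and length trends (0.0021, adjusted p = 0.971). CDK12 was at 15.004, 14.6 and 15.6 FPKM in the combination libraries, 23.8, 23.9 and 24.3 FPKM in the THZ1 libraries and 18.1, 20.5 and 21.6 FPKM in the DMSO libraries, lowest in the combination and highest with THZ1 (log2 difference -0.64, 95% interval -0.75 to -0.53, adjusted p = 8.57e-12). CDK13 was at 8.14, 8.45 and 8.91 FPKM in the combination libraries, 12.4, 13.5 and 13.5 FPKM in the THZ1 libraries and 8.85, 9.6999 and 9.76 FPKM in the DMSO libraries, so THZ1 lay above the other groups (log2 difference -0.57, 95% interval -0.69 to -0.46, adjusted p = 1.72e-10, -0.38 without the trends). CCNK, the cyclin of both kinases, was at 32.1, 30.3 and 31.1 FPKM in the combination libraries, 40.4, 42.9 and 44.4 FPKM in the THZ1 libraries and 37.1, 35.98 and 35.8 FPKM in the DMSO libraries (log2 difference -0.44, 95% interval -0.54 to -0.34, adjusted p = 2.61e-09). In the single treatments CDK12 averaged 27.2 ± 1.19 FPKM with THZ531, 15.4 ± 0.694 FPKM with YKL at 2 µM and 15.8 ± 0.468 FPKM with YKL at 500 nM. CDK7 averaged 43.7 ± 1.03 FPKM with THZ531, 29.5 ± 2.07 FPKM with YKL at 2 µM and 29.1 ± 1.18 FPKM with YKL at 500 nM, all under the combination at 2 µM.

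**Figure D4:**
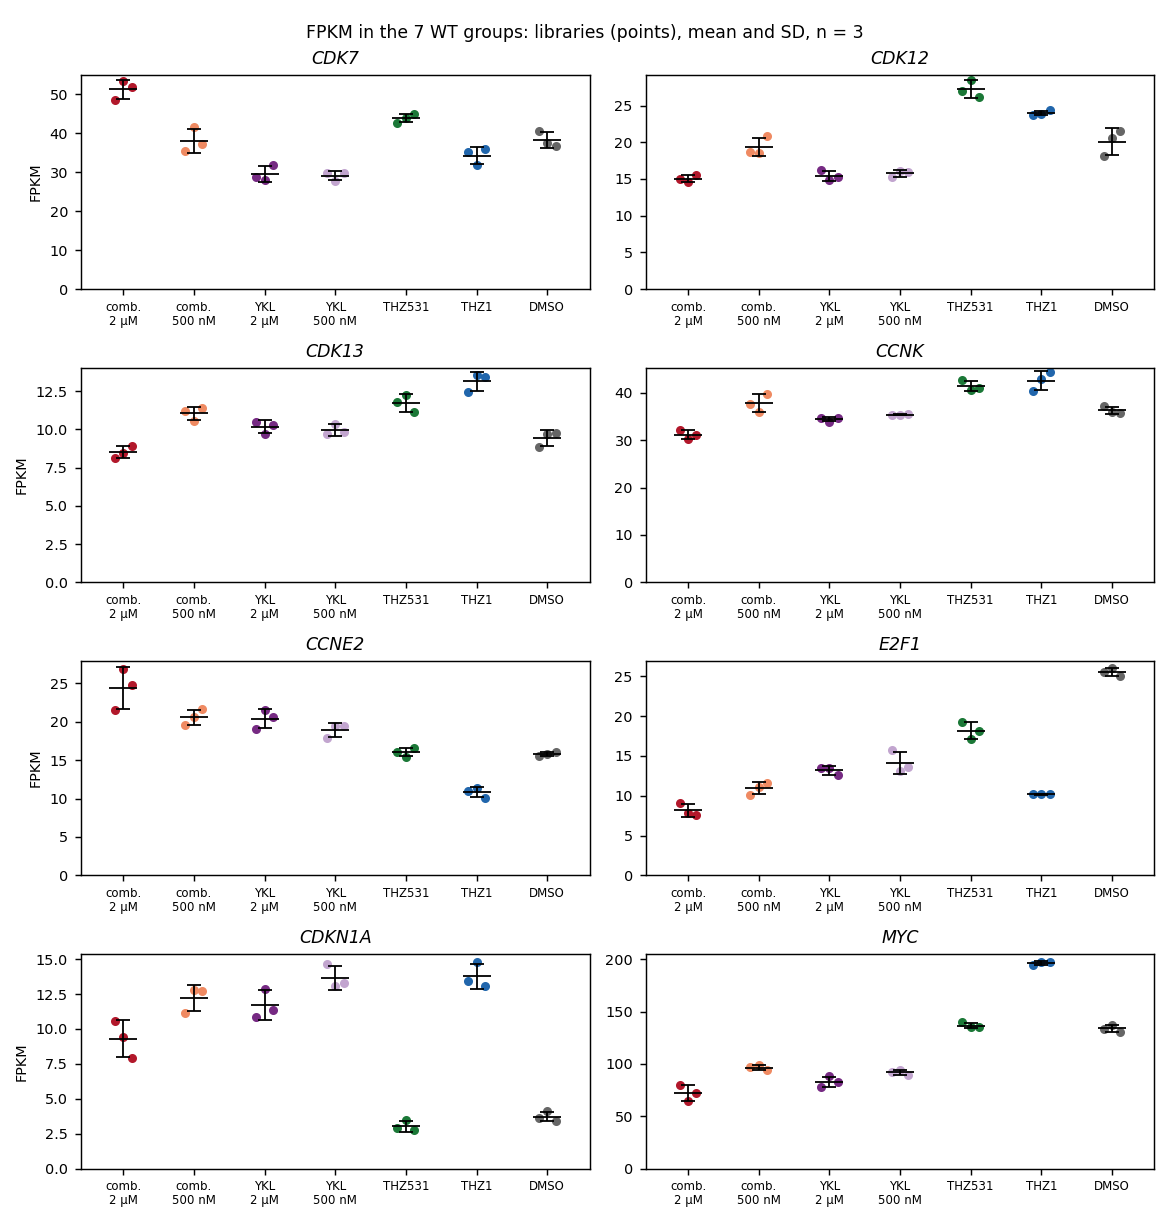
FPKM of 8 genes in each library of the 7 WT groups (points), with mean and SD of 3. CDK7 and CCNE2 average highest in the combination at 2 µM, MYC and CDK13 highest with THZ1, and E2F1 highest with DMSO.

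Cell cycle genes moved in both directions, with more members lower in the combination. Of 50 S phase and E2F target genes 18 were higher and 27 lower (background 38.4% and 35.6%), so the share higher was near that of all genes. The median was -0.22, or -0.243 relative to all genes. With spike-in scaling that relative median was 0.036, a turn made by the added 1 FPKM. With GC and length trends removed 14 were higher and 30 lower, with a median of -0.35. MCM2, a subunit of the replicative helicase, was at 74.9, 58.8 and 61.7 FPKM in the combination libraries, 188, 187 and 178 FPKM in the THZ1 libraries and 141, 150.3 and 143 FPKM in the DMSO libraries. The combination libraries were the lowest and THZ1 the highest (log2 difference -1.49, 95% interval -1.61 to -1.38, adjusted p = 1.67e-20). MCM4, of the same helicase, averaged 90.3 ± 0.465 FPKM in the combination libraries and 146 ± 2.77 FPKM in the THZ1 libraries (-0.69 log2). GINS4, a helicase cofactor, and RFC4, a subunit of the clamp loader, were higher in the combination. GINS4 averaged 21.3 ± 1.23 FPKM in the combination libraries and 12.9 ± 0.518 FPKM in the THZ1 libraries (0.68 log2). RFC4 averaged 89.8 ± 7.35 FPKM in the combination libraries and 53.1 ± 2.64 FPKM in the THZ1 libraries (0.74 log2, 0.33 without GC and length trends). CCNE2, the cyclin that drives S phase entry with CDK2, was at 21.5, 26.8 and 24.8 FPKM in the combination libraries, 11.04, 11.4 and 10.1 FPKM in the THZ1 libraries and 15.6, 15.8 and 16.02 FPKM in the DMSO libraries. It was highest in the combination and lowest with THZ1 (log2 difference 1.098, 95% interval 0.94 to 1.26, adjusted p = 9.67e-14, 0.67 without the trends). E2F1, the transcription factor of the same step, was at 9.09, 7.79 and 7.59 FPKM in the combination libraries, 10.2, 10.3 and 10.2 FPKM in the THZ1 libraries and 25.5, 26.02 and 25.1 FPKM in the DMSO libraries. Both treatments lay far under DMSO, and their difference was small (log2 difference -0.296, 95% interval -0.44 to -0.15, adjusted p = 0.000329), with no call without the trends (-0.0044, adjusted p = 0.948).

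Of 50 G2 and mitosis genes 15 were higher and 27 lower in the combination (background 38.4% and 35.6%, and 5 and 36 members without GC and length trends, median -0.41). The median was -0.23, or -0.253 relative to all genes. With spike-in scaling that relative median was 0.041, a turn made by the added 1 FPKM. FOXM1, the transcription factor of the G2 programme, was at 31.7, 28.1 and 29.8 FPKM in the combination libraries, 69.6, 69.1 and 70.2 FPKM in the THZ1 libraries and 79.98, 79.002 and 77.3 FPKM in the DMSO libraries. MYBL2, which acts with it, was at 47.7, 40.9 and 40.05 FPKM in the combination libraries, 109, 110.5 and 109 FPKM in the THZ1 libraries and 126, 123 and 122 FPKM in the DMSO libraries. For both, THZ1 stayed near DMSO and the combination lay low (-1.197 log2 for FOXM1 and -1.33 for MYBL2). CCNB1, the cyclin of mitotic entry, was at 227, 268 and 248 FPKM in the combination libraries, 131, 141 and 150.2 FPKM in the THZ1 libraries and 274, 245 and 247 FPKM in the DMSO libraries. Here THZ1 lay low and the combination stood at the DMSO level (log2 difference 0.81, 95% interval 0.68 to 0.94, adjusted p = 5.49e-13, 0.43 without the trends). CDC25C, the phosphatase that activates CDK1, averaged 25.996 ± 2.26 FPKM in the combination libraries and 15.6 ± 0.227 FPKM in the THZ1 libraries (0.698 log2, 0.46 without the trends). Against DMSO, 7 members were higher and 33 lower with the combination (background 38.9% and 38.1%), and 12 were higher and 26 lower with THZ1 (34% and 34.8%), in comparisons that share the DMSO libraries.

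The p53 target genes divided as well, 15 of 30 higher and 8 lower (background 38.4% and 35.6%). The median was 0.17 (0.11 without THZ1 replicate 2, 0.097 with a filter of 1 FPKM in all libraries and 0.019 with no filter on low values). BTG2, an antiproliferative gene, was at 36.7, 34.8 and 34.2 FPKM in the combination libraries, 14.9, 13.1 and 13.04 FPKM in the THZ1 libraries and 13.2, 12.2 and 12.2 FPKM in the DMSO libraries. CCNG2, an unconventional cyclin of arrested cells, was at 7.78, 7.77 and 8.05 FPKM in the combination libraries, 2.39, 2.56 and 3.01 FPKM in the THZ1 libraries and 2.11, 1.87 and 2.17 FPKM in the DMSO libraries. In both the THZ1 libraries lay near DMSO and the combination stood well above (1.302 log2 for BTG2 and 1.28 for CCNG2). GADD45B, a stress-responsive growth arrest gene, was at 5.79, 6.69 and 6.4003 FPKM in the combination libraries, 19.1, 18.3 and 15.3 FPKM in the THZ1 libraries and 4.96, 5.22 and 4.68 FPKM in the DMSO libraries. FDXR, a mitochondrial reductase, was at 18.02, 13.9 and 15.000 FPKM in the combination libraries, 31.4, 31.4 and 27.9 FPKM in the THZ1 libraries and 9.89, 10.6 and 11.02 FPKM in the DMSO libraries. These 2 were lower in the combination than with THZ1, by -1.34 and -0.92 log2. CDKN1A, the kinase inhibitor p21, was at 10.6, 9.39 and 7.93 FPKM in the combination libraries, 13.4, 14.8 and 13.1 FPKM in the THZ1 libraries and 3.64, 4.11 and 3.43 FPKM in the DMSO libraries. Both treatments were above DMSO, and the combination lay under THZ1 (log2 difference -0.53, 95% interval -0.72 to -0.33, adjusted p = 1.28e-05).

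Of 34 DNA repair genes linked to CDK12 in earlier work, 20 were higher in the combination and 9 lower (background 38.4% and 35.6%, median 0.204, 0.079 without GC and length trends). RAD51C and MRE11A, both of homologous recombination, were higher. RAD51C averaged 70.6 ± 3.59 FPKM in the combination libraries and 48.04 ± 2.84 FPKM in the THZ1 libraries (0.55 log2, 0.19 without the trends), and MRE11A 14.02 ± 1.22 FPKM in the combination libraries and 9.801 ± 0.151 FPKM in the THZ1 libraries (0.47 log2). PARP1, the sensor of strand breaks, was at 176, 163 and 169 FPKM in the combination libraries, 364, 356 and 374 FPKM in the THZ1 libraries and 244, 234 and 228 FPKM in the DMSO libraries. FANCA, of the Fanconi anaemia core complex, was at 14.4, 15.02 and 15.05 FPKM in the combination libraries, 23.3, 23.97 and 24.6 FPKM in the THZ1 libraries and 12.8, 12.9 and 13.96 FPKM in the DMSO libraries. Both were highest with THZ1, with differences of -1.102 and -0.66 log2 (-0.28 for FANCA without the trends). Of 25 BCL2 family and cell death genes 13 were higher and 4 lower (background 38.4% and 35.6%). DIABLO, which relieves inhibitors of caspases, averaged 65.5 ± 3.24 FPKM in the combination libraries and 37.3 ± 1.94 FPKM in the THZ1 libraries (0.795 log2), and BID, a death agonist, 23.3 ± 0.341 FPKM in the combination libraries and 13.9 ± 0.153 FPKM in the THZ1 libraries (0.701 log2). BCL2L11, the agonist BIM, was lower at 4.35 ± 0.457 FPKM in the combination libraries and 6.402 ± 0.574 FPKM in the THZ1 libraries (-0.47 log2). The survival protein MCL1 was at 54.8, 55.3 and 54.7 FPKM in the combination libraries, 63.03, 63.8 and 66.7 FPKM in the THZ1 libraries and 58.7, 55.8 and 54.9 FPKM in the DMSO libraries (log2 difference -0.23, 95% interval -0.33 to -0.13, adjusted p = 0.000132), and this call ended with scaling to equal total FPKM (-0.11, adjusted p = 0.123).

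Genes of the mitochondrial ribosome had the highest median of the 24 lists. Of 77 tested 63 were higher in the combination than with THZ1 and 8 lower (background 38.4% and 35.6%). The median was 0.57, or 0.546 relative to all genes (0.85 with spike-in scaling, a shift made by the added 1 FPKM). Without GC and length trends the counts were 56 and 11 and the median 0.28. MRPL43, of the large subunit, was at 86.5, 94.8 and 83.6 FPKM in the combination libraries, 32.2, 34.3 and 34.5 FPKM in the THZ1 libraries and 63.6, 55.5 and 58.98 FPKM in the DMSO libraries. The combination was 2.62 times THZ1, and DMSO lay between (log2 difference 1.36, 95% interval 1.24 to 1.48, adjusted p = 3.97e-19). MRPL18, another large subunit protein that also binds 5S RNA, was at 232 ± 11.6 FPKM in the combination libraries and 129 ± 7.98 FPKM in the THZ1 libraries (0.85 log2, 0.497 without the trends). MRPS2 and MRPL34 were among the 8 lower ones, by -0.42 (-0.28 without the trends) and -0.39 log2. Against DMSO, 45 were higher and 19 lower with the combination (background 38.9% and 38.1%), and 15 were higher and 41 lower with THZ1 (34% and 34.8%), again against the same DMSO libraries.

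The respiratory chain followed in part. Of 77 nuclear oxidative phosphorylation genes 45 were higher and 16 lower (background 38.4% and 35.6%), but 23 and 26 with GC and length trends removed (median 0.19, turning to -0.018 without the trends). NDUFB5 of complex I was at 182, 220.0 and 202 FPKM in the combination libraries, 93.1, 98.5 and 102 FPKM in the THZ1 libraries and 118, 103 and 107 FPKM in the DMSO libraries, highest in the combination (log2 difference 1.03, 95% interval 0.91 to 1.15, adjusted p = 5.72e-16). UQCRFS1, the Rieske protein of complex III, averaged 248 ± 15.6 FPKM in the combination libraries and 155 ± 9.15 FPKM in the THZ1 libraries (0.67 log2). NDUFV1 and NDUFS6, also of complex I, were lower by -0.85 and -0.69 log2. SDHAF4, an assembly factor of succinate dehydrogenase and one of the 10 largest rises, was at 33.1, 39.6 and 35.6 FPKM in the combination libraries, 8.69, 8.98 and 10.5 FPKM in the THZ1 libraries and 12.2, 10.2 and 8.13 FPKM in the DMSO libraries. THZ1 stood at the DMSO level and the combination 3.85 times THZ1 (log2 difference 1.84, 95% interval 1.58 to 2.098, adjusted p = 4.68e-14).

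Cytosolic ribosomal protein genes differed the other way. Of 81 tested 7 were higher and 46 lower in the combination (background 38.4% and 35.6%). The median was -0.23, or -0.255 relative to all genes. With spike-in scaling that relative median was 0.14, a turn made by the added 1 FPKM. Without GC and length trends 6 were higher and 64 lower, with a median of -0.39, and 18 were higher with equal total FPKM. Their copies and pseudogenes make single members uncertain. RPS2 was at 1036, 943 and 931 FPKM in the combination libraries, 2121, 2022 and 2022 FPKM in the THZ1 libraries and 1582, 1545 and 1465 FPKM in the DMSO libraries, lowest in the combination (log2 difference -1.08, 95% interval -1.19 to -0.97, adjusted p = 1.52e-17). RPLP2, of the ribosomal stalk, averaged 1467 ± 97.1 FPKM in the combination libraries and 3007 ± 32.9 FPKM in the THZ1 libraries (-1.04 log2). The members that rose were paralogs among others, with RPL39L at 82.8 ± 5.72 FPKM in the combination libraries and 39.9 ± 5.596 FPKM in the THZ1 libraries (1.04 log2) and RPS27L, a p53-induced paralog, at 108 ± 18.4 FPKM in the combination libraries and 77.8 ± 5.65 FPKM in the THZ1 libraries (0.46 log2). For the proteasome 22 of 36 subunit genes were higher and 11 lower (background 38.4% and 35.6%, median 0.22, 0.082 without GC and length trends). PSMA5, of the catalytic core, was at 98.6 ± 8.47 FPKM in the combination libraries and 50.5 ± 2.86 FPKM in the THZ1 libraries (0.95 log2, 0.58 without the trends). PSMD14, the deubiquitinase of the lid, was at 195 ± 10.1 FPKM in the combination libraries and 118 ± 0.895 FPKM in the THZ1 libraries (0.73 log2, 0.299 without the trends). PSMD2, of the base, was lower, at 148 ± 11.5 FPKM in the combination libraries and 273 ± 2.75 FPKM in the THZ1 libraries (-0.88 log2). PSMB2 of the core differed by -0.296, and by -0.18 with scaling to equal total FPKM.

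Stress and metabolic genes gave mixed counts. Of 36 integrated stress response genes 8 were higher and 22 lower (background 38.4% and 35.6%). The median was -0.24, or -0.269 relative to all genes. With spike-in scaling that relative median was 0.06, a turn made by the added 1 FPKM. PHGDH, the first enzyme of serine synthesis, was at 114, 99.01 and 101 FPKM in the combination libraries, 197, 199 and 192 FPKM in the THZ1 libraries and 175, 168 and 159.6 FPKM in the DMSO libraries, lowest in the combination (log2 difference -0.91, 95% interval -1.001 to -0.81, adjusted p = 4.61e-17). PSPH, the last enzyme of that path, was higher at 31.96 ± 2.04 FPKM in the combination libraries and 22.9 ± 1.32 FPKM in the THZ1 libraries (0.46 log2). The seryl-tRNA synthetase SARS was 0.42 log2 higher, and ALDH18A1, of proline synthesis, -0.596. Heat shock genes were higher in 10 and lower in 12 of 24 (background 38.4% and 35.6%), and in 6 and 13 without GC and length trends. HSPA8, the constitutive HSP70, was at 2344, 2675 and 2470.1 FPKM in the combination libraries, 1461, 1502 and 1515 FPKM in the THZ1 libraries and 2113, 1925 and 1852 FPKM in the DMSO libraries, highest in the combination (log2 difference 0.74, 95% interval 0.65 to 0.83, adjusted p = 1.77e-15). HSPE1, the mitochondrial co-chaperonin, differed by 0.501 log2 (0.19 without those trends), and SERPINH1, a collagen chaperone, by -0.64 (-0.39 without them). CRYAB, a small heat shock protein and one of the 10 largest falls, was at 7.74, 7.03 and 7.24 FPKM in the combination libraries, 36.1, 29.6 and 29.3 FPKM in the THZ1 libraries and 15.5, 16.5 and 14.4 FPKM in the DMSO libraries. The combination lay under DMSO and THZ1 above it (log2 difference -1.97, 95% interval -2.28 to -1.65, adjusted p = 6.23e-13).

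NRF2 targets, which serve antioxidant defence, were higher in 4 and lower in 13 of 25 (background 38.4% and 35.6%). The median was -0.23, or -0.13 with no filter on low values. Relative to all genes it was -0.253, and -0.043 with spike-in scaling, a shift made by the added 1 FPKM. The number lower was 17 and the median -0.38 without GC and length trends. NQO1, a quinone reductase, was at 89.2, 96.2 and 89.2 FPKM in the combination libraries, 59.3, 57.1 and 61.2 FPKM in the THZ1 libraries and 25.7, 22.8 and 19.5 FPKM in the DMSO libraries, above DMSO with both treatments and highest in the combination (log2 difference 0.62, 95% interval 0.502 to 0.74, adjusted p = 3.95e-11). FTL, the ferritin light chain, was at 691, 652 and 641 FPKM in the combination libraries, 1332, 1275 and 1308 FPKM in the THZ1 libraries and 686, 629.5 and 588 FPKM in the DMSO libraries, and the combination stood near DMSO with THZ1 above both (log2 difference -0.98, 95% interval -1.09 to -0.87, adjusted p = 1.13e-16). TKT, of the pentose phosphate path, differed by -0.96 log2 (-0.47 without GC and length trends), and NFE2L2, which encodes NRF2, by 0.496 (0.29). Of 27 cholesterol synthesis genes 10 were higher and 12 lower (background 38.4% and 35.6%). HSD17B7 averaged 33.5 ± 0.965 FPKM in the combination libraries and 17.1 ± 1.52 FPKM in the THZ1 libraries (0.93 log2). LSS, the lanosterol synthase, averaged 14.9 ± 1.09 FPKM in the combination libraries and 33.8 ± 1.45 FPKM in the THZ1 libraries (-1.13 log2, -0.701 without the trends). NSDHL differed by 0.38 (0.22).

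The hnRNP and SR proteins bind nascent transcripts and steer their splicing. Of 37 hnRNP and SR splicing factor genes 10 were higher and 22 lower (background 38.4% and 35.6%). Of the lower ones 9 were lower by at least 2-fold (background 3.2%). The median was -0.39, or -0.18 with no filter on low values. Relative to all genes it was -0.417, and -0.14 with spike-in scaling, a shift made by the added 1 FPKM. The counts without GC and length trends were 5 higher and 28 lower. HNRNPH1 was at 80.1, 78.7 and 80.6 FPKM in the combination libraries, 209.6, 207 and 217 FPKM in the THZ1 libraries and 229, 210.0 and 217 FPKM in the DMSO libraries. HNRNPH3, a close relative, was at 41.4, 39.1 and 42.6 FPKM in the combination libraries, 120.3, 120.3 and 119 FPKM in the THZ1 libraries and 139, 127 and 127 FPKM in the DMSO libraries. THZ1 lay at the DMSO level for HNRNPH1 and slightly under it for HNRNPH3. The combination lay far under THZ1 in both (-1.39 log2 for HNRNPH1 and -1.52 for HNRNPH3). HNRNPLL was higher at 48.1 ± 2.96 FPKM in the combination libraries and 26.4 ± 1.29 FPKM in the THZ1 libraries (0.84 log2, 0.56 without GC and length trends), and SRSF3 at 195 ± 9.67 FPKM in the combination libraries and 130.4 ± 4.19 FPKM in the THZ1 libraries (0.58 log2, 0.32 without them). Of 22 cleavage and polyadenylation genes 10 were higher and 10 lower (background 38.4% and 35.6%), but 7 and 14 without those trends. CPSF6, of cleavage factor I, was at 12.1, 11.9 and 12.3 FPKM in the combination libraries, 27.1, 27.6 and 27.9 FPKM in the THZ1 libraries and 27.4, 26.9 and 28.6 FPKM in the DMSO libraries, and again the combination alone lay low (log2 difference -1.12, 95% interval -1.21 to -1.04, adjusted p = 2.75e-20). PABPC1, the cytoplasmic poly(A)-binding protein, was lower at 217 ± 7.11 FPKM in the combination libraries and 434 ± 5.59 FPKM in the THZ1 libraries (-0.999 log2). CPSF3, the endonuclease, was higher at 90.2 ± 8.71 FPKM in the combination libraries and 45.9 ± 1.85 FPKM in the THZ1 libraries (0.96 log2), and WDR33 was 0.31 log2 higher (0.67 without the trends).

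Host genes of small nucleolar RNAs were higher in 3 and lower in 14 of 22 (background 38.4% and 35.6%), and in 1 and 15 without GC and length trends. The median was -0.29, or -0.312 relative to all genes (-0.0083 with spike-in scaling, a shift made by the added 1 FPKM). SNHG1 was at 74.98, 89.96 and 85.2 FPKM in the combination libraries, 131, 143 and 151 FPKM in the THZ1 libraries and 256, 214 and 217 FPKM in the DMSO libraries. SNHG4 was at 6.801, 6.09 and 7.44 FPKM in the combination libraries, 12.9, 15.03 and 12.03 FPKM in the THZ1 libraries and 27.2, 30.4 and 33.97 FPKM in the DMSO libraries. Both treatments lay under DMSO, the combination lowest (-0.76 log2 for SNHG1 and -0.88 for SNHG4). GAS5 was 0.38 log2 higher in the combination than with THZ1, but -0.100 without GC and length trends, and SNHG10 0.49 (0.21). Of 37 clustered histone genes 10 were higher and 2 lower (background 38.4% and 35.6%, with 5 and 7 members without the trends, and 4 lower without combination replicate 2). The median was 0.13 and turned to -0.052 without the trends. Relative to all genes it was 0.111, and -0.088 with spike-in scaling, a turn made by the added 1 FPKM. The counts were 6 and 0 and the median 0.46 with a filter of 1 FPKM in all libraries, the median was 0.037 with no filter, and 6 were higher with a pseudocount of 0.1. HIST1H2BK, a histone H2B gene, was at 276, 285 and 279 FPKM in the combination libraries, 222, 216 and 215 FPKM in the THZ1 libraries and 20.7, 18.1 and 17.3 FPKM in the DMSO libraries. Both treatments stood far above DMSO and the combination above THZ1 (log2 difference 0.36, 95% interval 0.204 to 0.52, adjusted p = 0.000104), though near-identical copies make the gene uncertain. Of 392 ZNF zinc finger genes 202 were higher and 84 lower (background 38.4% and 35.6%), against 165 and 90 without the trends (median 0.09). The median was 0.19, or 0.099 with no filter. Relative to all genes it was 0.169, and -0.042 with spike-in scaling, a turn made by the added 1 FPKM. ZNF561 and ZNF3 were 0.79 and 0.59 log2 higher, and ZNF589 and ZNF263 differed by -0.96 and -0.83. The list of mitochondrially encoded genes had 0 members in the table.

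**Figure D5:**
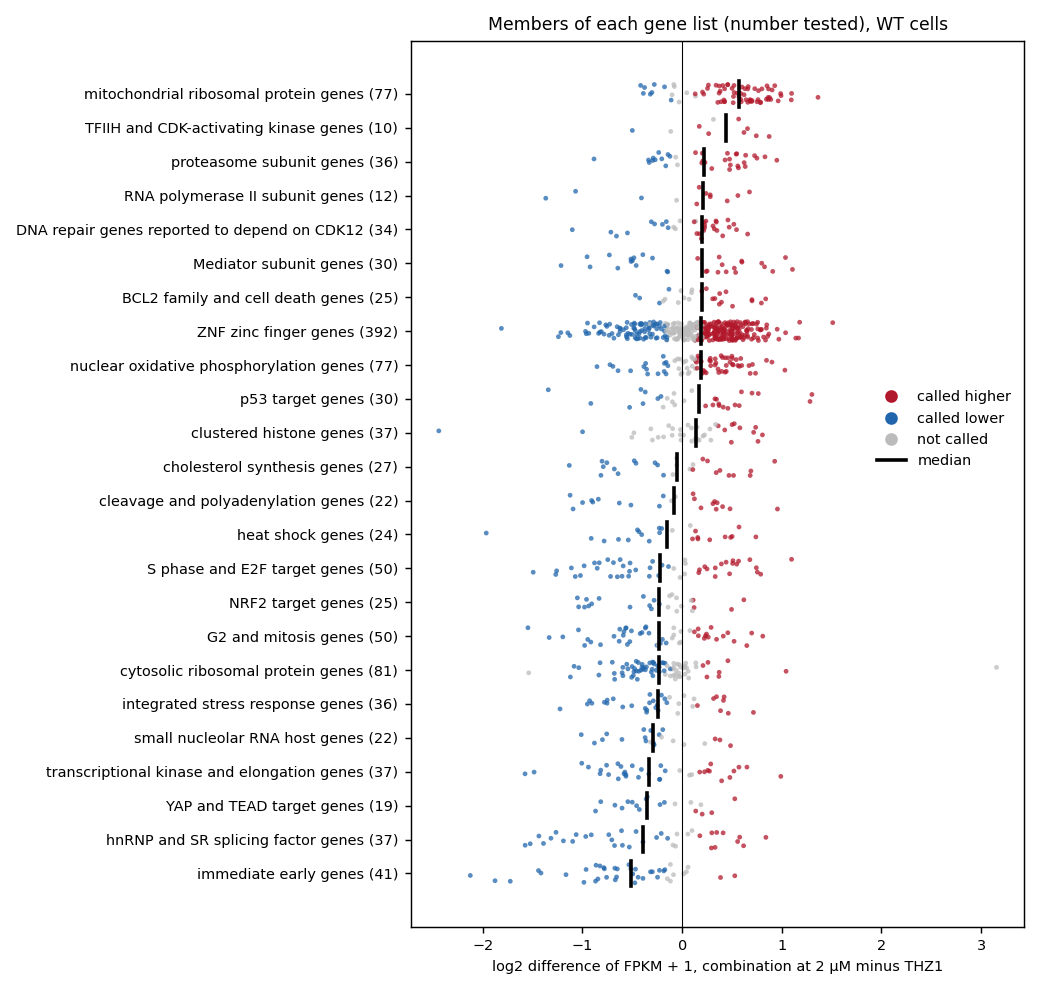
Log2 difference of FPKM + 1, combination at 2 µM minus THZ1, for each tested member of 24 gene lists in WT cells (points, coloured by call), with the list median as a bar. Medians run from -0.51 for immediate early genes to 0.57 for mitochondrial ribosomal protein genes.

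Among the 10 largest rises, AS3MT, an arsenic methyltransferase, was at 9.05, 12.8 and 7.898 FPKM in the combination libraries, 2.55, 2.27 and 0.675 FPKM in the THZ1 libraries and 13.6, 9.58 and 13.3 FPKM in the DMSO libraries. The combination stood near DMSO and THZ1 low (log2 difference 1.997, 95% interval 1.47 to 2.52, adjusted p = 3.26e-08). HBQ1, a theta globin gene, was at 19.7, 17.4 and 16.9 FPKM in the combination libraries, 6.73, 5.08 and 4.63 FPKM in the THZ1 libraries and 13.8, 14.5 and 17.2 FPKM in the DMSO libraries, again lowest with THZ1 (log2 difference 1.56, 95% interval 1.31 to 1.82, adjusted p = 1.32e-12). PNRC1, a nuclear receptor coactivator, was at 15.4, 16.4 and 18.5 FPKM in the combination libraries, 4.17, 4.24 and 3.91 FPKM in the THZ1 libraries and 3.05, 3.21 and 3.91 FPKM in the DMSO libraries, and ING4, a reader of trimethylated histone H3, was at 27.01, 30.2 and 27.01 FPKM in the combination libraries, 6.39, 8.31 and 7.95 FPKM in the THZ1 libraries and 9.95, 7.998 and 8.27 FPKM in the DMSO libraries. In these 2 THZ1 lay with DMSO and the combination above (1.79 log2 for PNRC1 and 1.77 for ING4). KANSL1-AS1, which is antisense to KANSL1 and so may share its reads, differed by 2.097 log2, LOC101930071 by 1.69 and IDNK, a gluconate kinase, by 1.55. SCHIP1 differed by 1.59, or 0.99 without THZ1 replicate 1. RPS10-NUDT3, a read-through locus whose reads may belong to RPS10, differed by 1.83, and its call ended without that library (0.95, adjusted p = 0.149).

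Of the 10 largest falls, DLK1, a Notch-like surface protein of progenitor cells, was at 1.77, 1.13 and 1.54 FPKM in the combination libraries, 10.9, 9.17 and 6.59 FPKM in the THZ1 libraries and 0.848, 1.02 and 0.896 FPKM in the DMSO libraries. VGF, a neuropeptide precursor, was at 1.71, 1.198 and 2.16 FPKM in the combination libraries, 9.66, 9.17 and 7.87 FPKM in the THZ1 libraries and 3.15, 3.03 and 2.199 FPKM in the DMSO libraries. ICAM5, a neuronal adhesion molecule, was at 2.81, 2.01 and 2.53 FPKM in the combination libraries, 12.7, 12.1 and 10.4 FPKM in the THZ1 libraries and 2.89, 2.65 and 2.07 FPKM in the DMSO libraries. In all 3 the THZ1 libraries stood high, with differences of -1.98, -1.89 and -1.89 log2. The combination lay slightly above DMSO for DLK1, under it for VGF and near it for ICAM5. IER5L and SLC7A5P1, a pseudogene that may take reads of SLC7A5, differed by -2.001 and -2.12. RMRP, the RNA of the RNase MRP complex, differed by -2.17, a call lost without THZ1 replicate 1 (-1.503, adjusted p = 0.0575). The read-through locus RPL36A-HNRNPH2 differed by -2.43.

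Both doses of YKL within the combination were compared as well. Between the combination at 2 µM and at 500 nM 7292 genes were called (56.9%), and 12 of them changed by at least 2-fold (0.0936%). With spike-in scaling 11522 genes were called between the doses, against 11459 between the combination at 2 µM and THZ1. HEXIM1 was at 7.72, 7.34 and 7.57 FPKM at 2 µM and 10.9, 12.4 and 12.5 FPKM at 500 nM (difference -0.598, adjusted p = 6.01e-11), so the lower dose stayed under the THZ1 level. POLR2A was at 83.5, 69.7 and 77.9 FPKM at 2 µM and 117, 106 and 122 FPKM at 500 nM (difference -0.58, adjusted p = 3.36e-07). FOXM1 was at 31.7, 28.1 and 29.8 FPKM at 2 µM and 47.5, 43.1 and 44.9 FPKM at 500 nM (difference -0.58, adjusted p = 4.57e-11). CDK7 at 500 nM, with 35.4, 41.5 and 37.3 FPKM, lay at the DMSO level and under the 2 µM level (difference 0.42, adjusted p = 2.82e-07). IER2 differed by -0.18 between the doses (95% interval -0.37 to 0.018, adjusted p = 0.115) and BTG2 by 0.074 (95% interval -0.051 to 0.199, adjusted p = 0.315), and neither passed.

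In C312S cells the combination at 2 µM and THZ1 differed in 9365 genes (73.1%), and the difference between the treatments itself differed between the lines in 9901 genes (77.3%, limma interaction term). The C312S THZ1 and DMSO libraries stood apart from the other C312S libraries, with summed FPKM of 819986 to 913367 and 780085 to 810301, against 582388 to 597533 in the C312S combination at 2 µM, and the part of this in the difference between the lines was not tested. CDK7 was at 36.5, 38.02 and 37.1 FPKM in the C312S combination libraries and 75.3, 75.5 and 76.6 FPKM in the C312S THZ1 libraries. On the deposited scale its order was thus turned round from WT (C312S minus WT -1.57, adjusted p = 2.6e-17, -0.49 without GC and length trends). Without those trends the WT difference was 0.0021, so no WT direction was left to turn. CCNE2 was at 24.4, 21.9 and 24.8 FPKM with the combination and 32.1, 32.97 and 30.8 FPKM with THZ1 in C312S, also turned round on the deposited scale (-1.52, adjusted p = 1.45e-13, -0.67 without the trends). CDKN1A was at 5.47, 6.37 and 5.94 FPKM with the combination and 2.77, 2.64 and 3.15 FPKM with THZ1 in C312S. On the deposited scale CDKN1A was thus higher with the combination there and lower in WT (1.37, adjusted p = 1.21e-10). With spike-in scaling it was higher with the combination in WT too (0.61). E2F1 was at 19.1, 19.8 and 17.8 FPKM with the combination and 11.8, 11.3 and 9.85 FPKM with THZ1 in C312S, again turned round on the deposited scale (1.03, adjusted p = 5.15e-11, 0.41 without the trends). The small WT fall of E2F1 was gone without the trends (-0.0044, adjusted p = 0.948) and was a rise of 0.79 with spike-in scaling. MYC kept its order in C312S on the deposited scale, at 97.98, 105 and 93.3 FPKM with the combination and 163, 157 and 172 FPKM with THZ1, with a smaller gap than in WT (0.72, adjusted p = 4.14e-10, 1.12 with equal total FPKM and 0.47 with spike-in scaling).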

How the data were processed

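Polyadenylated RNA of HAP1 cells was sequenced after 24 h of treatment, in 42 libraries that form 14 groups of 3 by their cell line and treatment labels. The authors deposited FPKM per gene. Tools listed in the submitters' processing notes are Cufflinks 2.2.1, Cuffnorm and HISAT2 2.0.4, with the build hg19 and no order or settings, and the labels' protocols name a stranded poly(A) kit. The sources used here do not say whether counting used the strand. Among its 26320 rows 92 hold ERCC spike-ins, and no 2 libraries held identical values. An exact 0 in such a table can be a failed estimate.

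Genes that reached 1 FPKM in 3 or more libraries, 12816 in number, entered limma 3.58.1 (R 4.3.3) on log2(FPKM + 1), which understates the change of low genes. The 14 group means were fitted over all 42 libraries with a trend on expression, and p-values were adjusted by Benjamini-Hochberg over all tested genes within each of 6 comparisons. Errors are SD over 3 libraries. The fit was tested on simulated data. GC content and length came from GENCODE transcripts matched by symbol for 94.75% of the tested genes, and promoters from RefSeq. The spike-in level is the median log2 ratio of 23 spike-ins to the geometric mean library, and the gene level that of 10376 genes, each above 1 FPKM in all libraries. Plots were drawn with Python 3.11.15 and matplotlib 3.10.9.

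Named genes were called, had groups that did not overlap, a mean of 5 FPKM or more in either group, no exact 0 and no short RNA name. The 10 largest rises and falls and up to 2 rising and 2 falling members of each of 25 gene lists were taken, and 9 genes were open to naming anywhere. Some genes that this rule takes are not reported here. The members and lists were chosen with earlier results of these data known. Alternatives were another pseudocount, other filters, 3 scalings, fits without the other groups, without the trend or with a replicate block, removal of GC and length trends, and leaving out each library.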

Additional observations from a re-analysis of the deposited data

Results flagged for a closer look

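The difference between the combination at 2 µM and THZ1 was not the same in the 2 lines. The interaction term of the limma fit, C312S minus WT, was called for 9901 genes (77.3%), and for each of the 9 genes singled out for this test. With that share over all genes, calls in all 9 do not set these genes apart. On the deposited scale CDK7 (C312S minus WT -1.57 log2) and CCNE2 (-1.52) were lower in the combination than with THZ1 in C312S cells and higher in WT cells. CDKN1A (1.37) and E2F1 (1.03) were higher in the combination in C312S cells and lower in WT cells on that scale. With spike-in scaling the order of these genes was not turned round. Their WT differences were then, as named, 1.79, 2.15, 0.61 and 0.79, and their interactions -1.75, -1.56, 0.94 and 0.88. Without GC and length trends the WT difference was 0.0021 for CDK7 and -0.0044 for E2F1. For CCNE2 it was 0.67, with an interaction of -0.67. MYC was lower in the combination in both lines on the deposited scale, and the gap was smaller in C312S cells (0.72). CDK12 averaged 21.3 ± 0.9898 FPKM with the combination and 19.9 ± 1.93 FPKM with THZ1 in C312S cells (n = 3), a difference of 0.094 log2 there and -0.64 in WT cells, and the interaction was 0.73 (1.11 with equal total FPKM). The difference in C312S cells did not pass (adjusted p = 0.127). For CDK13 the interaction was 0.63 (0.38 without GC and length trends, 0.405 with spike-in scaling and 0.98 with equal total FPKM). For CCNK it was 0.44 (0.83 with equal total FPKM), and for MCL1 0.28 (0.46 without the trends and 0.67 with equal total FPKM). The last 2 did not pass with spike-in scaling (CCNK 0.21, adjusted p = 0.332, and MCL1 0.041, adjusted p = 0.836). Giving these alternatives for single genes was chosen after seeing the data. On the deposited scale the adjusted p was at most 0.000669 for each of the 9. The C312S THZ1 libraries that enter these values stood apart in summed FPKM, and the part of that in the interaction was not tested.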

How the results depend on the processing

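The number of called genes stayed between 8950 and 9387 when each of the 6 libraries was left out, and the number changed at least 2-fold between 592 and 828. That second number was 1255 with a pseudocount of 0.1, 320 without GC and length trends and 5865 with spike-in scaling. Spike-in scaling also gave 11406 genes higher and 53 lower, and 11522 called between the doses of the combination. With total FPKM as the gene level, the difference in spike-in level was -1.19.

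Of 114 genes named, at least 113 kept their direction and call under each alternative, with 4 exceptions. These are spike-in scaling, removal of GC and length trends, leaving out THZ1 replicate 1 (111 kept), and the filter of 1 FPKM in all libraries, under which 101 were tested and 101 kept. Most named genes were picked because they were called in these same libraries. Keeping a call in a refit was therefore largely set in advance and is no independent support. Without GC and length trends ANKRD1 turned to -0.11 and GAS5 to -0.100, and ATF3, ERCC2, CDK7 and E2F1 lost their calls. RPS10-NUDT3 lost its call with only the groups compared in the fit. Spike-in scaling, which moves all genes by a median of 0.918, ended the calls of 19 genes and turned the sign of 38 that were lower. Of the 38, 28 were called higher, and 10 (CPSF6, FOXM1, LSS, MED24, MED26, PARP1, POLR2E, PTPN14, RPS2 and ZNF589) were not called. Their values were MCM4 (0.602), FOXM1 (0.081), FDXR (0.32), PARP1 (0.200), FANCA (0.55), BCL2L11 (0.53), MCL1 (1.04), CTGF (0.41), PTPN14 (0.22), ALDH18A1 (0.68), PHGDH (0.39), SERPINH1 (0.66), TKT (0.34), FTL (0.33), LSS (0.11), RPS2 (0.22), RPLP2 (0.27), MRPS2 (0.86), MRPL34 (0.88), NDUFV1 (0.44), NDUFS6 (0.61), PSMD2 (0.42), PSMB2 (0.98), ERCC2 (0.64), POLR2E (0.21), MED24 (0.043), MED26 (0.14), PABPC1 (0.304), CPSF6 (0.11), SNHG1 (0.53), SNHG4 (0.27), ZNF589 (0.24), ZNF263 (0.42), CDK12 (0.57), CDK13 (0.56), CCNK (0.81), E2F1 (0.79) and CDKN1A (0.61).

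The replicate numbers did not pair the libraries (correlations of same-numbered deviations -0.027, -0.078 and 0.063), and a fit with the number as a replicate block called 9515 genes and ended the call of ANKRD1. A fit of the 21 WT libraries alone, chosen after seeing the data, kept all 114 named calls. Read depth is unknown, so what low genes can show is limited by the spread of 3 libraries.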
